A study of Mus musculus with 33 samples.

Results

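The comparison is the RNA of unactivated CH12 cells with and without ZMYND8. CH12 is a murine B cell lymphoma line; its cells make IgM and can be switched to IgA. Libraries were assigned to groups by their labels: 6 libraries of the knockout (KO) lines, 3 of the ZMYND8 KO1 clone and 3 of the ZMYND8 KO2 clone, against 6 wild-type (WT) libraries, 3 of parental WT cells and 3 of a WT clone. These are 12 of the 33 samples of the series and 12 of its 24 RNA-seq libraries, all from cells cultured for 48 h without the activating stimulus. Ribosome-depleted total RNA was sequenced. KO1, KO2 and the WT clone are labelled as clones, so each genotype is represented by 2 lines, and the 3 cultures of a line, which the labels call biological repeats, measure the spread within that line. What differs between clones for reasons other than ZMYND8 cannot be told apart from the genotype with 2 lines of each.

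ZMYND8 is a chromatin reader: it binds acetylated and methylated histone tails through a PHD finger, a bromodomain and a PWWP domain, and it is known to recruit chromatin remodelling and histone demethylase complexes to enhancers and promoters. Mature B cells keep a network of transcription factors that hold plasma cell differentiation back, and their immunoglobulin loci carry enhancers that are themselves transcribed. Total RNA holds such unprocessed and noncoding transcripts beside mature mRNA.

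Each library was deposited as estimated counts over Ensembl transcripts, numbered genomic regions and a few immunoglobulin heavy chain (Igh) elements. The text uses regions in 2 ways: as they stand, and summed over all regions lying wholly inside 1 RefSeq gene, called a gene value. A gene value is RNA from part of a gene, with exon, intron and strand not resolved, and it is not the gene's mRNA level. Levels are in CPM, counts scaled to a common library depth, and changes are log2 ratios of KO to WT ± standard error. An item was called, and is said to have risen or fallen, when edgeR's quasi-likelihood test gave a Benjamini-Hochberg adjusted p under 0.05. Library totals ranged from 28987854 to 34065813 counts. WT culture 3 of the parental line and culture 2 of the WT clone stood apart from the other 10: their median correlation with the rest over 636 gene values was 0.808 and 0.806, against 0.861 to 0.908. Total counts of calls, counts per gene list that changed and calls of named genes that were lost without them are given both ways. Summed B cell markers (8 of 12 had a value) were at 44.1 to 62.3 CPM in KO and 25.7 to 57.8 CPM in WT libraries. Summed T cell markers (8 of 15, with Bcl11b at 0) were at 2.31 to 3.16 CPM in KO and 2.17 to 3.53 CPM in WT, and those of NK, myeloid, erythroid, stromal and epithelial cells stayed at or below 2.76 CPM, with Tbx21, Tal1, Col1a1, Col4a1 and Krt5 at 0. The B cell sums of the 2 genotypes overlapped. Of 7 tested B cell markers 1 was called, and 4 had a change above 0. Ebf1, the marker with the highest level, was at 24.4 in KO and 17.04 CPM in WT and was not called. In bulk RNA, fewer cells of a type and less RNA per cell cannot be told apart, and what part marker levels have in the results was not tested.

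RNA over the Zmynd8 gene did not separate the genotypes. The 6 regions inside Zmynd8 (chr2:165784152-165898981, GRCm38) summed to a lowest, median and highest value of 1.62, 1.70 and 2.64 CPM in KO libraries and 1.23, 1.47 and 1.97 CPM in WT libraries. The groups overlapped, and the change of 0.32 ± 0.17 was not called (edgeR adjusted p = 0.344). The labels do not state which part of the gene was disrupted, so this level checks neither the loss of the protein nor the labels.

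Rises and falls were about equally frequent among gene values in ZMYND8 KO lines. Of 4485 gene values 151 rose and 137 fell, which is 6.42% called, 3.37% higher and 3.05% lower. Of 11264 regions 417 rose (3.7%) and 292 fell (2.59%), 6.29% called. Of 49806 transcripts 1470 rose (2.95%) and 2159 fell (4.33%), 7.29% called. With counts summed per line, which leaves 2 values against 2, 54 regions, 310 transcripts and 244 gene values were called. The median size of a called change was 1.90-fold for gene values, 2.31-fold for regions and 1.79-fold for transcripts. Among called gene values 120 of 288 changed at least 2-fold and 21 at least 4-fold. With the 2 libraries that stand apart left out, which was tried only after seeing the data, 338 gene values were called and 63.9% of them were higher in KO, against 52.4% with all libraries. In that setting 706 regions were called, 65.4% of them higher, against 58.8% with all libraries. Of transcripts 3808 were called, 36.5% of them higher, against 40.5%.

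Few items differed between lines of the same genotype, and more differed between any KO and any WT line. A KO line can be paired with a WT line in 4 ways, each 3 libraries against 3, as in the comparisons within a genotype. The pairings called 102 (2.27%, KO1 with parental WT), 139 (3.1%, KO1 with WT clone), 89 (1.98%, KO2 with parental WT) and 175 (3.9%, KO2 with WT clone) gene values, while the WT clone differed from parental WT in 6 (0.134%) and KO2 from KO1 in 0 (0.0%). That 0 comes from edgeR; DESeq2 called 2 there, and 199 had an unadjusted p under 0.05, or 4.44% of those tested. In the same order the pairings called 2.18%, 2.75%, 2.41% and 3.6% of regions, against 12 (0.107%) between WT lines and 15 (0.133%) between KO lines. Of transcripts they called 3.17%, 3.66%, 3.42% and 4.29%, against 308 (0.618%) and 228 (0.458%). The counts themselves were not tested against each other, and comparisons that use the same line share its libraries.

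**Figure D1:**
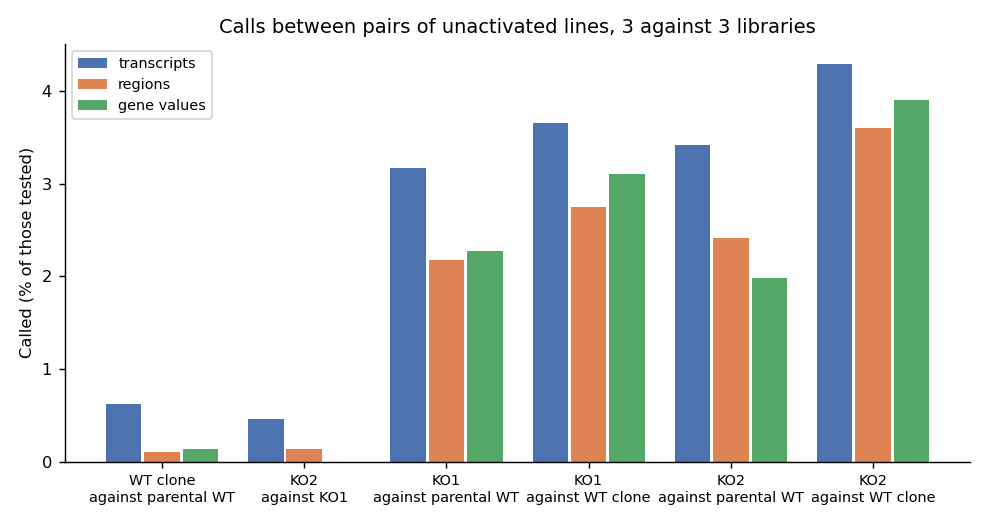
Share of tested transcripts, regions and gene values (y axis, percent) called between each pair of unactivated lines, 3 libraries against 3 in 1 fit. The pairs within a genotype, at the left, reach at most 0.618%, and the 4 KO to WT pairings lie between 1.98% and 4.29%.

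The changes of the 2 KO clones were also compared where they share no library, as KO1 against parental WT and KO2 against the WT clone. Across all 4485 gene values these changes had a Pearson correlation of 0.46, given as a description because genes are not independent. A stricter count, of items called with 1 sign in all 4 pairings, held 28 gene values that rose (0.624%) and 15 that fell (0.334%), 0.959% in all. It held 80 regions that rose (0.71%) and 30 that fell (0.266%), 0.977% in all, and 237 (0.476%) and 393 (0.789%) transcripts, 1.26% in all. For 84 gene values every KO library lay above every WT library (1.87%) and for 69 every KO library lay below (1.54%).

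**Figure D2:**
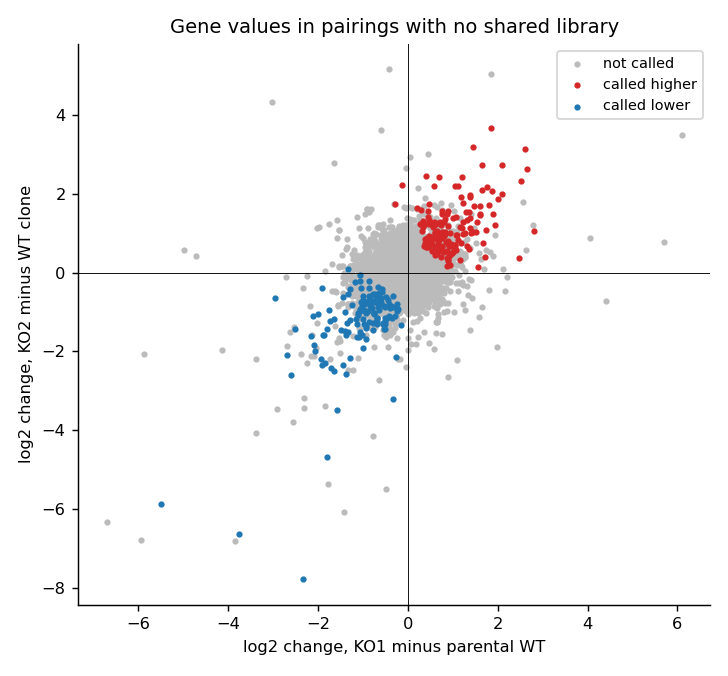
Log2 change of each gene value in KO1 minus parental WT (x axis) and KO2 minus WT clone (y axis), which share no library. Across all 4485 gene values the Pearson correlation is 0.46; those called higher (red) and lower (blue) were chosen by the pooled comparison, which contains both plotted contrasts, so their place in matching quadrants follows from that choice, and those not called are grey.

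Glb1 and Tusc3, which act on glycans, were among the strongest rises. Glb1, the lysosomal beta-galactosidase (chr9:114401078-114474379), lay at 11.5, 14.9 and 17.9 CPM (lowest, median, highest) in KO libraries and 3.21, 3.69 and 4.16 CPM in WT libraries. The lowest KO library was thus well above the highest WT library, and the change was 1.97 ± 0.17 (edgeR adjusted p = 1.95e-10), with line means of 12.6 CPM in KO1 and 16.7 CPM in KO2. Tusc3, a subunit of the oligosaccharyltransferase that adds N-glycans in the endoplasmic reticulum (chr8:39005351-39167050), lay at 2.67, 3.32 and 4.12 CPM in KO against 0.668, 0.990 and 1.23 CPM in WT. It rose by 1.77 ± 0.18 (edgeR adjusted p = 1.62e-08), more in KO1 (mean 3.85 CPM) than in KO2 (2.92 CPM).

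The list of lysosomal enzymes and membrane proteins as a whole did not follow Glb1. Of its 19 tested members 3 rose and 1 fell, beside 6.42% of all gene values called, and the list's median change was -0.02, beside -0.04 for all gene values. Besides Glb1, Mcoln2, an endolysosomal cation channel, rose by 0.67 ± 0.15 (edgeR adjusted p = 0.00437), a call lost with KO2 alone (0.54). Laptm5, a lysosomal membrane protein that limits antigen receptor levels, fell by 0.62 ± 0.16 (edgeR adjusted p = 0.0130), and its call was lost in the comparisons that used 1 KO line (-0.57 and -0.68) or 1 WT line (-0.64 and -0.60) and without the 2 libraries that stand apart (-0.49). Ctsc, a lysosomal protease, was at 4.79 in KO and 2.93 CPM in WT and was not called (adjusted p = 0.0859), and Npc2, which carries cholesterol out of lysosomes, was at 1.76 and 1.79 CPM. Without the 2 libraries the count was 4 higher and 0 lower, in a setting where 63.9% of all called gene values were higher.

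Of 15 tested genes of endosome traffic 3 rose and 0 fell, with a list median of 0.15, where 3.37% of all gene values rose and 3.05% fell. Vps41, a subunit of the HOPS complex that tethers late endosomes to lysosomes (chr13:18717292-18866811), lay at 1.57, 1.75 and 2.29 CPM in KO and 0.197, 0.310 and 0.534 CPM in WT. It rose 5.35-fold (edgeR adjusted p = 1.62e-08) and was called in all 4 pairings. Tbc1d5, a Rab7 regulator bound to retromer (chr17:50733124-51181199), lay at 5.24, 5.77 and 6.18 CPM in KO and 1.60, 2.67 and 3.84 CPM in WT, a rise of 1.10 ± 0.21 (edgeR adjusted p = 4.74e-04). Neither pairing of Tbc1d5 with the WT clone was called (edgeR adjusted p = 0.160 for KO1 and 0.0525 for KO2). Vps13c, a lipid transfer protein, rose by 0.86 ± 0.18 (edgeR adjusted p = 0.00208), a call lost against parental WT alone (0.51). Without the 2 libraries that stand apart, 5 members were called higher and 0 lower, in a setting where 63.9% of all called gene values were higher.

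Other leading rises fell in no single list. Colq, the collagen-like tail that anchors acetylcholinesterase (chr14:31523082-31577863), was at 5.42, 6.36 and 9.74 CPM in KO and 1.14, 2.18 and 3.02 CPM in WT, and 3 of its 3 tested regions were called higher. Ly6e, a GPI-anchored protein induced by interferon, was at 6.85 ± 1.25 in KO and 3.05 ± 0.51 CPM in WT (SD, n = 6 each). It was the 1 called gene among 7 tested members of the interferon response list, whose median was 0.09, beside 6.42% of all gene values called. Irf2, an interferon regulatory factor that represses interferon-induced genes (chr8:46739745-46847458), was at 2.43, 2.73 and 3.41 CPM in KO and 1.11, 1.49 and 1.61 CPM in WT. Crbn, cereblon, the substrate receptor of a ubiquitin ligase, was at 3.78 ± 0.30 against 1.86 ± 0.60 CPM. Slc25a12, the mitochondrial aspartate and glutamate carrier, was at 5.32 ± 0.57 against 2.69 ± 0.49 CPM. Ubxn11, a UBX domain protein, was at 4.17 ± 1.32 against 1.52 ± 0.27 CPM. All of these were called in the 4 pairings, with no overlap of the groups. Ero1b, an oxidase that forms disulfides in the endoplasmic reticulum, rose by 0.96 ± 0.17 (edgeR adjusted p = 2.11e-04) and was not called in every pairing.

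Tango6, Fads2 and Ss18 led the falls among genes at 2 CPM or more. Tango6, a gene of transport and Golgi organization (chr8:106683068-106851439), lay at 2.76, 3.60 and 3.90 CPM in KO and 8.63, 15.4 and 17.9 CPM in WT, and fell by 2.08 ± 0.22 on the log2 scale (edgeR adjusted p = 5.53e-08). Fads2, which makes polyunsaturated fatty acids (chr19:10062765-10101503), lay at 0.899, 1.29 and 1.5 CPM in KO and 3.75, 4.38 and 6.12 CPM in WT. The groups of both genes were far apart, and the fall of Fads2 was 1.90 ± 0.19 (edgeR adjusted p = 1.62e-08), a call lost with counts summed per line (-1.86). It was the 1 called gene of 15 tested for fatty acid and sterol synthesis, whose median was -0.18, beside 6.42% of all gene values called. Without the 2 libraries that stand apart 1 member of that list was called higher and 1 lower. Ss18, a subunit of the BAF chromatin remodelling complex (chr18:14625629-14684419), lay at 1.78, 2.37 and 2.67 CPM in KO and 4.25, 5.2 and 6.54 CPM in WT, a change of -1.17 ± 0.16 (edgeR adjusted p = 2.03e-06). It was the 1 called gene among 23 tested partners of ZMYND8 and chromatin regulators, whose median change was -0.06, beside the same 6.42% of all gene values. Without the 2 libraries 1 member of this list was called higher and 1 lower. Arid1b, another BAF subunit, was at 6.59 and 6.72 CPM, and Mta3, a subunit of the NuRD complex, at 2.87 and 2.82 CPM.

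Of 25 tested genes of adhesion, homing and the actin cytoskeleton 5 fell and 1 rose, where 3.05% of all gene values fell and 3.37% rose. The list median was -0.24, beside -0.04 for all gene values. Gas7, an F-BAR protein that shapes membranes with actin (chr11:67453257-67688992), lay at 9.60, 10.3 and 11.7 CPM in KO and 21.7, 27.7 and 38.0 CPM in WT and was called in all 4 pairings (-1.49 ± 0.20, edgeR adjusted p = 2.07e-06). Lcp1, the actin bundling protein plastin, was at 11.4 ± 1.63 in KO and 21.7 ± 8.61 CPM in WT, with overlapping groups, a call lost against parental WT alone (-0.64) and a change of -0.56 without the 2 libraries that stand apart. Sema7a, a semaphorin, and Plxnc1, its receptor, changed by -0.85 ± 0.21 and -0.52 ± 0.16 (edgeR adjusted p = 0.00917 and 0.0368). Dock10, a guanine nucleotide exchange factor, changed by -0.67 ± 0.18 (edgeR adjusted p = 0.0182), and Itgb3, an integrin chain, rose by 0.57 ± 0.16 (edgeR adjusted p = 0.0266). Of 24 alternative settings, Itgb3 lost its call in 12, Plxnc1 in 15 and Dock10 in 9. This list rested on the libraries that stand apart: without them 2 members fell and 2 rose, and Dock10 (-0.30), Plxnc1 (-0.34) and Sema7a (-0.79) were no longer called. Lrch1, a leucine-rich repeat protein outside the list, was at 9.52 ± 0.74 in KO and 18.04 ± 1.94 CPM in WT and was called in all 4 pairings.

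Further falls touched signalling and the proton pump. Pik3r6, a regulatory subunit of PI3K gamma, was at 1.44 ± 0.23 CPM in KO against 3.00 ± 0.42 CPM in WT, and Atp6v0e2, a subunit of the vacuolar proton pump, at 3.67 ± 0.75 against 8.12 ± 2.17 CPM. Both were called in all 4 pairings, and the call of Atp6v0e2 was lost with counts summed per line (-1.13). The other V-ATPase subunits tested, Atp6v0d1 and Atp6v0a1, were under 0.2 CPM and not called. Notch2, a Notch receptor on which marginal zone B cells depend, was at 1.93 ± 0.25 against 3.21 ± 0.33 CPM, and Gxylt1, which extends O-glucose on Notch proteins, at 1.18 ± 0.06 against 2.34 ± 0.61 CPM. The call of Notch2 was lost with counts summed per line (-0.71) and that of Gxylt1 against parental WT alone (-0.70). Gramd3, Gng7, Kctd1, Ppfibp2 and Ankrd28 were also among the leading falls, with changes between -1.02 and -0.80. Of these 5, Kctd1 lost its call with KO1 alone (-0.56) and with counts summed per line (-0.76). None of the 5, nor Notch2 or Gxylt1, was called in every pairing.

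**Figure D3:**
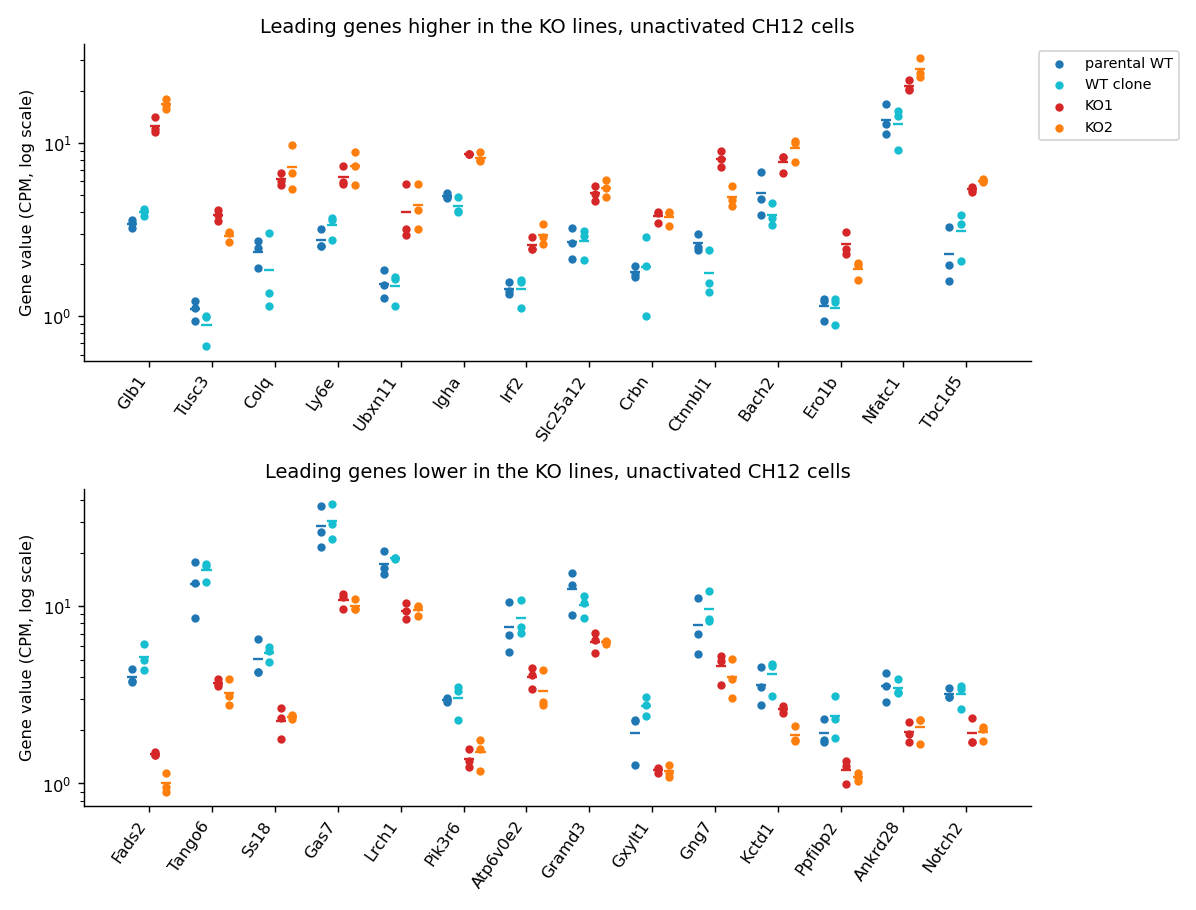
Gene values in CPM (y axis, log scale) in each of the 12 unactivated libraries for leading genes higher (top) and lower (bottom) in KO lines; points are libraries, bars the means of 3 cultures of a line. The KO libraries do not overlap the WT libraries in any of these genes except Bach2.

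The B cell program was changed at single members. Of 19 tested genes of B cell identity 2 rose and 1 fell, beside 6.42% of all gene values called, with a median of -0.03. Bach2, a repressor that delays plasma cell differentiation (chr4:32238413-32586109), was at 6.74, 8.29 and 10.2 CPM in KO and 3.34, 4.19 and 6.84 CPM in WT. The groups overlapped by the WT library at 6.84 CPM, which is one of the 2 that stand apart, and the change was 0.93 ± 0.15 (edgeR adjusted p = 7.62e-05). For KO1 against parental WT Bach2 was not called (edgeR adjusted p = 0.208). Bank1, a B cell scaffold protein, rose by 0.66 ± 0.19 (edgeR adjusted p = 0.0294), a call lost in 11 of 24 alternative settings. Irf8, a transcription factor of B and myeloid cells, was lower at a low level, 0.0342, 0.141 and 0.218 CPM in KO against 0.460, 0.667 and 1.62 CPM in WT (-2.60 ± 0.43, edgeR adjusted p = 2.01e-04). For KO2 against parental WT Irf8 was not called (edgeR adjusted p = 0.165). Ikzf1 and Ebf1, regulators of the B lineage, were at 67.9 and 24.4 CPM in KO and 75.7 and 17.04 CPM in WT, and Pax5 at 6.07 and 6.24 CPM; none of the 3 was called.

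Among B cell receptor signalling genes 3 of 26 rose and 1 fell, beside 6.42% of all gene values called, with a median of -0.10. Nfatc1, a calcium-regulated transcription factor (chr18:80606205-80713071), was at 20.3, 23.7 and 30.8 CPM in KO and 9.06, 13.6 and 16.9 CPM in WT (0.85 ± 0.16, edgeR adjusted p = 4.74e-04). Neither pairing of Nfatc1 with KO1 was called (edgeR adjusted p = 0.179 for parental WT and 0.0764 for the WT clone). Prkce, a protein kinase C, was at 8.44 ± 1.87 against 4.26 ± 1.68 CPM (edgeR adjusted p = 0.00138), and lost its call with KO1 alone (0.75) and against parental WT alone (0.69). Ptpn6, a phosphatase that dampens receptor signals, rose by 0.62 ± 0.16 (edgeR adjusted p = 0.0138), a call lost against the WT clone alone (0.47), with KO2 alone (0.51) and without WT clone culture 3 (0.53). Gng7, a G protein gamma chain, fell by 1.02 ± 0.19 (edgeR adjusted p = 3.66e-04). Without the 2 libraries that stand apart the counts were 7 higher and 1 lower here and 4 and 1 for B cell identity. In the same setting 4 of 7 tested B cell markers were called higher, against 1 with all libraries. Rises were more frequent there among all gene values too: 338 were called and 63.9% of these were higher, against 288 and 52.4% with all libraries.

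Of 11 tested plasma cell genes 1 rose, Prdm1, which encodes Blimp-1, and 0 fell, beside 6.42% of all gene values called; the list median was 0.25. Prdm1 was at 0.685, 1.01 and 1.09 CPM in KO and 0.254, 0.498 and 1.07 CPM in WT. The spread within WT came from the lines: parental WT had a mean of 0.875 CPM, close to KO1 (1.00) and KO2 (0.918), and the WT clone 0.292 CPM. The change of 0.92 ± 0.22 (edgeR adjusted p = 0.00786) was 0.13 and not called against parental WT alone. Without the 2 libraries 2 members rose, in a setting where 63.9% of all called gene values were higher. Zbtb20 and Edem1 were not called (adjusted p = 0.630 and 0.772).

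Of the AID and class switch recombination factors 7 had enough counts, and 1 of these was called, beside 6.42% of all gene values. Ctnnbl1, a spliceosome-associated protein that binds AID, rose. It was at 4.31, 6.44 and 8.95 CPM in KO and 1.37, 2.40 and 2.99 CPM in WT, higher in KO1 (8.09) than in KO2 (4.87 CPM), and its call was lost with counts summed per line (1.57). For KO2 against parental WT Ctnnbl1 was not called (edgeR adjusted p = 0.0877). Nbn and Msh6, repair factors, were at 2.04 and 1.42 CPM in KO and 2.20 and 1.22 CPM in WT and not called. Igha, the constant gene of IgA, holds 1 region, which was at 8.43 ± 0.40 against 4.64 ± 0.48 CPM and was called in all 4 pairings.

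Beside 6.42% of all gene values called, each of the other gene lists held at most 1 call, and the T cell marker list held 2 among 4 tested. Ccnd2, a D-type cyclin, fell at a low level, from 0.496 ± 0.092 CPM in WT to 0.146 ± 0.056 CPM in KO, and was the 1 call of 19 cell cycle genes (median 0.14). Bcl2a1b, a BCL2-family survival gene with near-identical copies among which reads can be split, fell by 0.87 ± 0.20 (edgeR adjusted p = 0.00443) as the 1 call of 18 in the CD40 and NF-kB list (median -0.34), and lost its call with KO1 alone (-0.74) and against parental WT alone (-0.64). Bcl2 rose by 0.65 ± 0.18 (edgeR adjusted p = 0.0171) as the 1 of 9 for apoptosis and p53 (median -0.04), and lost its call without KO2 culture 1 (0.61), with KO1 alone (0.50) and against parental WT alone (0.58). Runx1 rose by 0.59 ± 0.15 (edgeR adjusted p = 0.0144) as the 1 of 11 for TGF-beta and SMAD (median -0.21). It lost its call in 4 of 24 alternative settings, among them against parental WT alone (0.39) and with KO2 alone (0.51). Gtpbp4, a nucleolar GTPase, changed by -1.11 ± 0.29 (edgeR adjusted p = 0.0197) as the 1 of 10 for MYC and ribosome biogenesis (median 0.01), and lost its call in 11 of 24 alternative settings. Myc was at 24.2 and 25.4 CPM. None of 6 MHC class II genes passed edgeR's test, nor either of 2 stress genes: H2-Aa was at 4.22 and 4.34 CPM and H2-Eb1 at 5.77 and 6.43 CPM, with a list median of -0.44. Among T cell markers Lck rose (1.03 ± 0.28) and Cd28 fell (-0.93 ± 0.26) at levels of at most 1.02 CPM (edgeR adjusted p = 0.0197 and 0.0217). Of 24 alternative settings, Lck lost its call in 8 and Cd28 in 9, and without the 2 libraries that stand apart neither was called. In that setting 1 cell cycle gene was called higher and 1 lower, and 2 genes of the CD40 and NF-kB list were called lower.

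Where a called gene had several tested regions, seldom were all of them called. Of all tested regions inside 1 gene, 2.81% were called higher and 2.25% lower. A region that was not called may have changed too: in simulated data the fit recovered 39.2% of 2-fold changes over all targets. Of the 71 called genes with at least 3 tested regions, 30 had 1 region called in the gene's direction, 30 had 2 or more, of which 2 had all, and 11 had none. In 1 gene a region was called in the opposite direction. In Tango6 1 of 4 tested regions was called. Its region at chr8:106802312-106803594 fell from 13.7 to 2.57 CPM, while the other 3 tested regions, one of them at 0.351 CPM in WT and 0.328 CPM in KO, were not called. In Lrch1 the region at chr14:74905405-74909701 went from 10.7 to 3.10 CPM, and a region at chr14:74934926-74941209 was at 2.33 and 2.13 CPM. In Gas7 the 3 called regions lie next to each other, 112 to 126 kb from the low-coordinate end of the gene, with changes of -2.20, -1.66 and -1.30, and the 2 regions nearer that end changed by 0.38 and -0.16 and were not called. The region at -2.20 varied widely in WT, at 2.44, 3.68 and 14.6 CPM (lowest, median, highest), against 0.967, 1.46 and 1.67 CPM in KO. Only the other 2 were called in all 4 pairings.

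Rises showed the same unevenness. In Nfatc1 the region at chr18:80618168-80620114 went from 2.88 to 12.1 CPM and its 2 neighbours rose by 1.07 and 1.06, whereas the region at chr18:80652705-80656223 was at 4.31 CPM in WT and 4.32 CPM in KO. In Glb1 almost the whole difference, 99.7%, lay in chr9:114464784-114468743, which rose from 3.20 to 14.1 CPM. Ctnnbl1 rose most at chr2:157806891-157809349, from 0.679 to 3.86 CPM. Bach2 was broader, with 4 of its 12 tested regions called and changes above 0 in all 12. Ss18 fell in 1 of 3 tested regions, from 4.00 to 1.24 CPM. Since a region can lie in an intron or overlap an unannotated transcript, the gene's name tells where the RNA maps, not which transcript it belongs to.

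**Figure D4:**
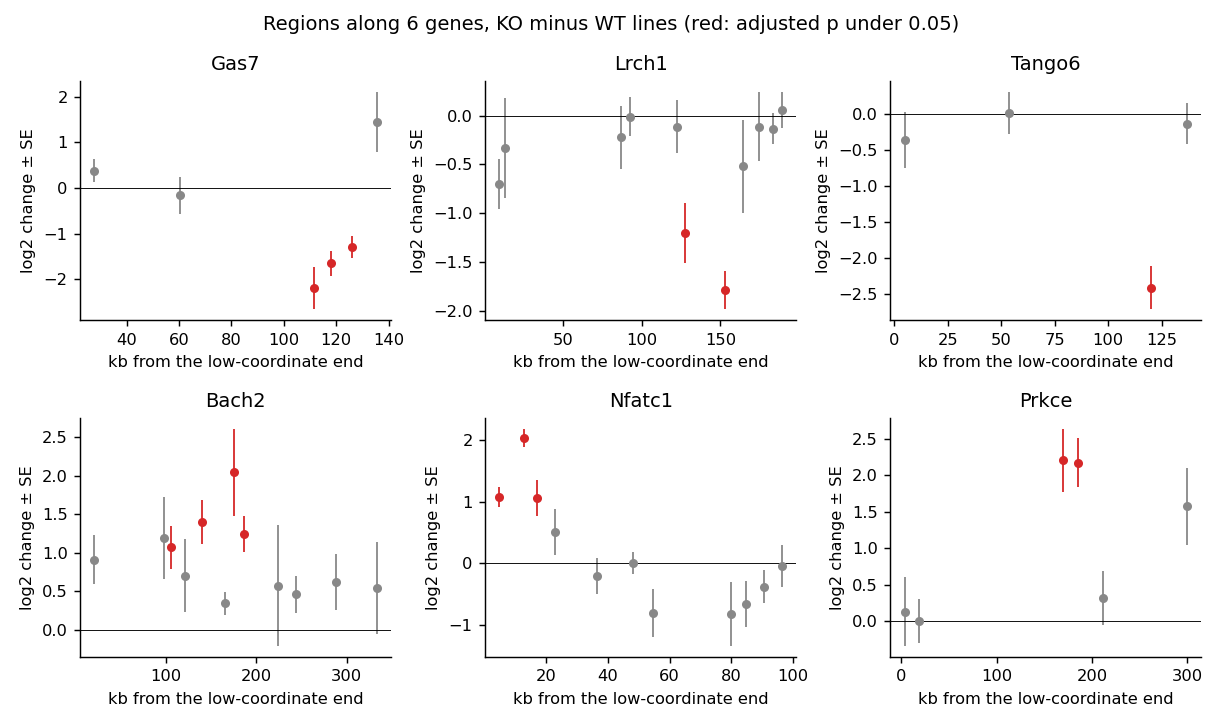
Log2 change (KO minus WT lines, ± standard error, y axis) of each tested region along 6 genes, by distance in kb from the gene's low-coordinate end (x axis); red marks an adjusted p under 0.05. In Tango6 a single region is called, in Gas7 and Nfatc1 the 3 called regions are neighbours, and in Bach2 all 12 regions lie above 0.

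Rises outnumbered falls most among regions outside genes. Of 2697 tested regions outside RefSeq genes 5.56% rose and 2.71% fell, against 2.81% and 2.25% of 6939 inside 1 gene, and 4.42% and 3.87% of 1628 that cross a gene end or several genes. These shares were not tested against each other. In all 4 pairings, 33 outside regions rose and 6 fell (1.22% and 0.222%). The share of all counts on regions was 4.23% ± 0.32 in KO and 4.43% ± 0.33 in WT (SD, n = 6 each, exact 2-sided permutation p = 0.333), so the total did not differ beyond the spread of libraries. A single region, region_10649, held 2.01% to 2.97% of all counts in these libraries. Without it the share was 1.79% ± 0.09 in KO and 1.91% ± 0.37 in WT (same permutation test, p = 0.470).

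The largest rises outside genes lay at the immunoglobulin loci and on chromosome 10. At the Igl light chain locus the region chr16:19010282-19012128 was at 15.4, 17.9 and 19 CPM in KO and 0.332, 0.469 and 0.789 CPM in WT (34.8-fold), and chr16:19023848-19026109 at 9.70, 11.3 and 12.2 against 0.318, 0.644 and 0.789 CPM. The region over Iglc1, Iglj1 and Iglc3, which hold lambda constant and joining segments, moved the other way, 12.2, 18.8 and 30.4 CPM in KO against 54.9, 80.8 and 122 CPM in WT. The transcript of the Igh mu enhancer was at 79.1 in KO and 35.1 CPM in WT, a change of 1.18. In activated cells its change was -0.15 (edgeR interaction term, adjusted p = 8.69e-05). Among the other Igh elements tested, hs3a (0.696 against 0.348 CPM) and hs3b (0.850 against 0.0390 CPM) rose. The switch alpha intron transcript, at 0.687 against 0.913 CPM, was not called (edgeR adjusted p = 0.159). In the Igh 3' regulatory region, the enhancer cluster past the constant genes, 3 regions rose between 7.91-fold and 22.2-fold. At chr12:113314446-113315182, between the constant genes, KO libraries had 0 counts and WT libraries 722, at least 253-fold lower in KO taking 3 counts for the whole group as the floor. Kappa variable segments differed too: the region over Igkv1-88 was at 12.5, 16.5 and 19.6 CPM in KO and 0.589, 1.34 and 1.90 CPM in WT, and that over Igkv10-96 at 60.9 ± 6.09 against 115.5 ± 23.75 CPM.

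Away from the immunoglobulin loci, chr10:60165989-60172001 changed most, at 21.2, 28.1 and 32.8 CPM in KO and 1.60, 1.72 and 2.50 CPM in WT (14.5-fold, edgeR adjusted p = 3.74e-12). It lies 3598 bases from the predicted gene Gm51802, whose own region rose from 4.37 to 14.1 CPM. On chromosome 4 a region 356 bases beyond the end of Bach2, chr4:32586465-32589033, was at 1.43, 1.47 and 3.15 CPM in KO and 4.66, 11.2 and 17.4 CPM in WT, opposite in direction to the regions inside Bach2; its call was lost with counts summed per line (-2.56). Past Irf2, the region chr8:46848721-46853001 rose 2.11-fold, as the gene value did, with a call lost when counts were summed per line (1.10). A region 418 bases from Slamf7, a receptor found on plasma cells, rose from 0.883 ± 0.233 to 2.83 ± 0.395 CPM; the Slamf7 gene value itself was 0.293 against 0.106 CPM and missed the threshold (adjusted p = 0.0554). Regions near Sorl1, Bhlhe41 and Scd1 rose 6.54-fold, 5.13-fold and 2.39-fold, and 2 regions past Pvt1 3.24-fold and 3.31-fold. Regions across the ends of Nrp1 and over Tmem176a and Tmem176b fell, to 15.2 from 30.7 CPM and to 0.637 from 2.66 CPM.

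Some regions called in all 4 pairings lay near each other. Of the 110 regions called in all 4 pairings, 38 formed 15 clusters with gaps of at most 50 kb, and in all but 1, at the Igl locus, the members moved the same way. The rest had no other such region within that distance, and the share of all tested regions with a close neighbour was not computed. A cluster of 4 regions around Gm31718 and A630001O12Rik on chromosome 8 rose by 1.24 to 3.07, and 3 around Pebp4 and Gm33524 on chromosome 14 by 1.51 to 2.89.

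**Figure D5:**
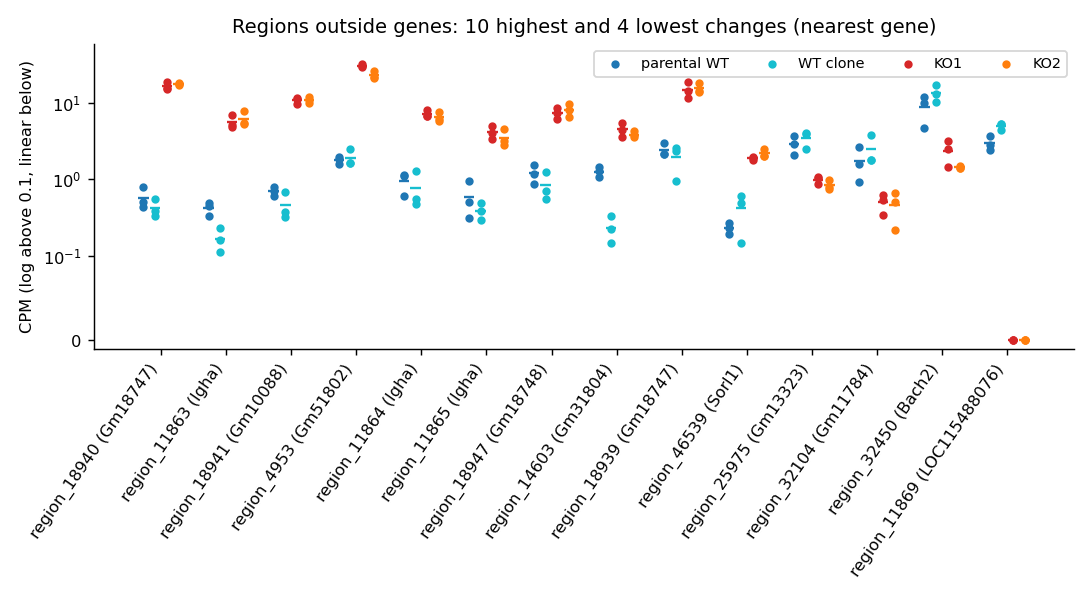
CPM of the 10 regions outside genes with the highest and the 4 with the lowest log2 change in each of 12 libraries (y axis, log above 0.1 and linear below), named by number and nearest gene; points are libraries, bars line means. Every KO library lies above every WT library in the first 10 and below in the last 4, where region_11869 has 0 counts in KO.

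Among the 48 regions outside genes or across gene ends that changed in all 4 pairings at 2 CPM or more, 5 overlapped 6 RefSeq promoter windows (250 bases before to 50 after a gene's start, GRCm38.p6), which are shown because these data place changed RNA on them. Both strands were searched for ATTTGCAT (the octamer of immunoglobulin promoters, in 1.74% of all 32851 windows), CAGGTG (an E-box bound by E2A, in 20.2%), GGAA and GAAA with any 2 bases between them (an ETS and IRF composite, in 2.72%) and GGGA and TTCC with any 2 bases between them (an NF-kB type site, in 1.47%). Capitals mark a match. Of 4 windows printed here, that of Gm51802 (chr10:60162342-60162641, minus strand) holds the octamer, that of 4933404K13Rik (chr10:43825657-43825956, plus strand) the E-box and that of Gm31718 (chr8:126853199-126853498, minus strand) the composite on its reverse strand, and that of Gm33628 (chr12:108758142-108758441, minus strand) holds none. The other 2 windows, of Gm33619 and A630001O12Rik, lie in regions that rose by 2.11 and 1.75 and hold none of the 4 motifs either. The regions over the first 3 rose, from 4.37 to 14.1, from 1.89 to 7.99 and from 2.84 to 9.56 CPM, and that over Gm33628 fell from 7.05 to 3.29 CPM. A match is a description of the sequence only.
Gm51802: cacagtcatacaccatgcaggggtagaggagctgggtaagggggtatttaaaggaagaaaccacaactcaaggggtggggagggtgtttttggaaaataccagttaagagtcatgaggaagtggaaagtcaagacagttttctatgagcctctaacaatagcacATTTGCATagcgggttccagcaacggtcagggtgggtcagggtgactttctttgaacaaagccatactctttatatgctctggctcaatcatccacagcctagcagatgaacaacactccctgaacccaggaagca
4933404K13Rik: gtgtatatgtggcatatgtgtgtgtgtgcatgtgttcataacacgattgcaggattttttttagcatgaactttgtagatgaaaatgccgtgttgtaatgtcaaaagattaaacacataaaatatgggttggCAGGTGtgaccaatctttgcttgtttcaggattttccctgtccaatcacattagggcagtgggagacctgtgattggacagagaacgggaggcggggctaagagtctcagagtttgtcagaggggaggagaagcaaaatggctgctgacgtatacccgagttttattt
Gm31718: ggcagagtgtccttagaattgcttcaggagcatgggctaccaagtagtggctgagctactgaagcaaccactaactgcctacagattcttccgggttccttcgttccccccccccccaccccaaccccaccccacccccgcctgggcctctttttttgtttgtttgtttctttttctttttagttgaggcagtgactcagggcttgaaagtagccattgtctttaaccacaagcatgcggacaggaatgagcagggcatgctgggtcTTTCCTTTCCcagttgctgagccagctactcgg
Gm33628: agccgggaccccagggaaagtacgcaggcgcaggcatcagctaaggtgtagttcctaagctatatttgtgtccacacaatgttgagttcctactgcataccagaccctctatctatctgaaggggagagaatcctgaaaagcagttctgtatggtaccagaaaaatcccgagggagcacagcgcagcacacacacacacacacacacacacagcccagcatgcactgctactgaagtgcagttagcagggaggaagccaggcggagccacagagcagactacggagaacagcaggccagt

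The KO effect also differed from that in activated cells for some items: the edgeR interaction term called 0.758% of gene values, 0.737% of regions and 1.22% of transcripts. Called gene values lay on every autosome and on chromosome X. By chromosome, the median change of gene values lay between -0.13 on chromosome 16 and 0.04 on chromosome X. Chromosome 1 held the most rises, 23 beside 11 falls among 319 gene values, and chromosome 5 the most falls, 12 beside 7 rises among 309. Over all gene values 3.37% rose and 3.05% fell. These counts follow the number of gene values too: chromosome 8 had 11 falls and 6 rises among 197. Shares by chromosome were not tested.

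Ensembl transcripts are given by identifier because no table linking them to genes was used. The 2 with the smallest p in each direction changed between 2.36-fold and 31.7-fold. ENSMUST00000098192 was at 20.8, 26.2 and 28.4 CPM in KO and 0.509, 0.778 and 1.28 CPM in WT, and ENSMUST00000022881 at 89.2, 107 and 116 against 42.4, 44.9 and 47.0 CPM. ENSMUST00000105617 was at 0.342, 0.403 and 0.465 CPM in KO and 10.3, 12.8 and 15.6 CPM in WT. ENSMUST00000089510 was lower in both KO lines to unequal extents, with means of 0.656 CPM in KO1, 3.96 CPM in KO2, 20.9 CPM in the WT clone and 32.1 CPM in parental WT, and its call was lost with counts summed per line (-3.50).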

How the data were processed

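Per the labels' protocols, total RNA depleted of ribosomal RNA was sequenced from stranded, single-end libraries. Per the submitters' processing notes, kallisto 0.43.0, DESeq2 and the build GRCm38.p5 were used. How kallisto treated strand is not given in the sources used here. Values deposited by the authors are estimated counts per target, neither whole nor normalized, of 121400 transcripts, 49745 regions and 7 heavy chain elements. TPM columns, also deposited, were left aside. kallisto shares reads among similar targets, so near-identical copies and a region overlapping a transcript depend on that split.

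Counts were rounded to whole numbers, with TMM scaling; edgeR 4.0.16 (R 4.3.3) fitted 8 group means over 24 libraries after filterByExpr, with Benjamini-Hochberg adjustment over all targets tested or, separately, all gene values tested. Gene values sum regions wholly inside 1 RefSeq gene. Depth was 28987854 to 34065813 counts per library. The region share was compared by an exact permutation test, whose smallest p for 6 against 6 is 0.00216.

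The members, lists and rules were chosen with earlier results of these data known. Named genes are the 15 smallest p in each direction with at least 2 CPM in a group, not Gm or Rik named, called in all 4 pairings first and of equal sign in all 4 pairings after that; called list members, at most 6 by p, and 2 not called members a list; the 6 highest and 6 lowest outside regions called in all 4 pairings; and 2 transcripts in each direction. Other regions named, and gene values in the closing section below that level, were chosen after their values were seen. Alternatives tried: DESeq2 1.42.0, scaling by relative log expression, no filter, a replicate block, only the 12 libraries, counts summed per line, each line alone, each library left out, and, added after seeing the data, leaving out 2 libraries and scaling from gene values. Tested on simulated data for this comparison (4292 gene values, 200 changed), the fit recovered 62.2% of 2-fold and 92.9% of 4-fold changes; over all targets (58125, 200 changed) it recovered 39.2% and 57.9%. The simulated data held no difference between lines of a genotype or between states, so these shares do not cover differences between lines. Python 3.11.15 was used. Replicates differed beyond sampling noise (chi-square per degree of freedom 14.27 to 102.1). The other 9 samples were not analysed here, and some items that the rules select are not reported here.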

Additional observations from a re-analysis of the deposited data

Results flagged for a closer look

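For 5 genes, 1 region and 1 transcript picked by the naming rules the KO effect differed between unactivated and activated cells by the interaction term of the same edgeR fit. These come from 110 named items. Adjusted p-values are over all items tested, among which 0.758% of gene values passed. Many named items were picked by the p or size of their unactivated change, which is part of the interaction term. A count among them is therefore not comparable with that share. The log2 change of Ctnnbl1 was 1.54 without and -0.50 with activation (adjusted p of the difference = 6.74e-05). That of Tusc3 was 1.77 and 0.43 (adjusted p = 0.00659), and that of Igha 0.86 and -0.03 (adjusted p = 0.00875). Gas7 changed by -1.49 and -0.19 (adjusted p = 0.0129) and Atp6v0e2 by -1.15 and -0.05 (adjusted p = 0.04). Region_11869, between the heavy chain constant genes, changed by -9.96 without and -2.85 with activation (adjusted p = 0.000216); the first value comes from 0 counts in KO and depends on the prior count. ENSMUST00000105617 changed by -4.97 and -1.64 (adjusted p = 1.52e-07).

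In 6 of 220 groups of 6 libraries checked, 1 library lay far from the other 5; chance alone flags about 1 in 20 groups. KO2 culture 1 was highest for Colq, at 9.74 CPM with the other KO libraries at 5.42 to 6.72, and for Ebf1, at 31.6 CPM with the others at 21.3 to 24.7. Parental WT culture 3, one of the 2 libraries that stand apart, was highest for Prkce, at 7.47 CPM with the other WT libraries at 2.70 to 4.37. WT clone culture 3 was highest for H2-Eb1, at 9.19 CPM with the others at 5.22 to 6.26. KO2 culture 2 was lowest for Cd28, at 0.249 CPM with the others at 0.514 to 0.634. Parental WT culture 1 was highest for region_11865 in the Igh 3' regulatory region, at 0.953 CPM with the others at 0.295 to 0.501.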

How the results depend on the processing

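Of 2621 values of single items under the alternatives, 2494 kept direction and side of the threshold, 116 lost the call, 11 gained one and 0 changed direction among called values; 38 of the 67 called items kept their call in every alternative run. With counts summed per line, the alternative closest to lines as replicates, 310 transcripts, 54 regions and 244 gene values were called, and 195 of the 288 called gene values were called again in the same direction. With KO1 alone 2159 transcripts, 425 regions and 158 gene values were called, with KO2 alone 463 regions and 184 gene values, and against parental WT alone 2358 transcripts, 386 regions and 156 gene values. With only the 12 unactivated libraries 440 regions were called, 66.8% of them higher. These settings use fewer samples. DESeq2 called 5108 transcripts and 926 regions.

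Leaving out each library in turn gave 218 to 323 called gene values, 562 to 707 regions, 2829 to 3459 transcripts, and 24 to 41 gene values called in all 4 pairings, with the lowest of these without parental WT culture 2. The labels do not say that a culture number marks a shared batch or day. Over gene values, deviations of same-numbered libraries correlated between -0.656 and 0.665, above 0.1 in 11 of 18 pairs, and 6 of 12 libraries were closest to their own number, and in 16 of the 48 regions outside genes or across gene ends that were called in all 4 pairings, culture 1 was the highest of 3 in all 4 lines (culture 2 and culture 3 in 0). Some regions thus moved with the culture number, while not every pair of libraries did. With culture number as a replicate block, 339 gene values, 774 regions and 3825 transcripts were called, and the 288 called gene values all remained. Gene values of few counts limit what could be called at this depth.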

Other observations

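The following gene values under 2 CPM were called in all 4 pairings with no overlap between the groups; they were chosen after their values were seen. Pigr, the receptor that carries polymeric IgA and IgM across epithelia, was at 1.29 ± 0.41 in KO and 0.242 ± 0.18 CPM in WT (SD, n = 6 each), a change of 2.42 ± 0.31 (edgeR adjusted p = 1.37e-06). Ackr3, a scavenging receptor for the chemokine CXCL12, was at 0.742 ± 0.140 against 0.284 ± 0.097 CPM, and Drd3, a dopamine receptor, at 1.72 ± 0.79 against 0.322 ± 0.198 CPM. Lower in KO were App, the amyloid precursor protein, at 0.292 ± 0.211 against 1.09 ± 0.19 CPM, and Shb, an adaptor of tyrosine kinase signalling, at 0.391 ± 0.113 against 1.65 ± 0.77 CPM. Vash1, vasohibin, was at 0.605 ± 0.16 against 1.85 ± 0.40 CPM, and Adgrl2, a latrophilin, at 0.215 ± 0.042 against 0.860 ± 0.285 CPM. Acsl6, an acyl-CoA synthetase, was at 0.0104 ± 0.0255 in KO and 0.362 ± 0.190 CPM in WT. Ano4, Ccdc38 and Ms4a4a, at 0.0827, 0.280 and 0.285 CPM in WT, were higher in KO, at 0.540, 0.843 and 1.17 CPM.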
